A study of Mus musculus with 14 samples.

Results

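The genes described here encode 7 transcription factors that drive CD8+ T cells toward effector function: Tbx21, Prdm1, Zeb2, Eomes, Runx3, Irf4 and Batf. They were taken by gene symbol from the array annotation, and each was read by 1 probe set, so 7 genes of the 19937 genes on the arrays are followed. All 7 passed the filter on dim genes that left 14438 genes for testing.

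The arrays measured effector CD8+ T cells of C57BL/6J background taken by flow cytometry on day 6 after mice were given ovalbumin-bearing Listeria. The wild-type (WT) KLRG1hi group had 3 arrays. The KLRG1lo groups were Id2KO with 2 arrays, Id2KOBimKO with 2, BimKO with 2 and WT with 5. KLRG1 is a surface receptor of terminal effector cells. Id2 holds back the E proteins, and Bim, made from Bcl2l11, promotes cell death. In all groups the donor cells came from fetal liver chimeras, had been moved into congenic recipients and had RNA amplified in repeated rounds. The labels name OT-I, an ovalbumin-specific T cell receptor, for each group except Id2KOBimKO. They do not say whether arrays of a group come from separate mice, or how the alleles were made, so p-values reflect only how far these arrays scatter, which may be technical.

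T-bet, the product of Tbx21, and Eomesodermin, the product of Eomes, are related T-box activators that share targets among cytotoxic genes and favour effector and memory cells to different degrees. Zeb2 is an E-box-binding zinc finger repressor that acts downstream of T-bet in mouse CD8+ T cells, and Blimp-1, made from Prdm1, is a zinc finger repressor that ends proliferative and memory programs. Runx3 keeps the CD8 lineage and its cytotoxic genes active. IRF4 follows the strength of T cell receptor signals and binds DNA together with BATF, an AP-1 family partner, in the first phase of the response.

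The promoter windows of the genes that differed between the sorted WT populations are shown because E proteins and Zeb2 both recognise E-boxes, and Id2 keeps E proteins off such sites. Sequences are from RefSeq for mouse assembly GRCm38.p6, run 5′ to 3′ on the strand of the gene over 300 bases that lie mostly before an annotated start, and carry every match to CANNTG in capitals.
Tbx21, minus strand, chr11:97115282-97115581: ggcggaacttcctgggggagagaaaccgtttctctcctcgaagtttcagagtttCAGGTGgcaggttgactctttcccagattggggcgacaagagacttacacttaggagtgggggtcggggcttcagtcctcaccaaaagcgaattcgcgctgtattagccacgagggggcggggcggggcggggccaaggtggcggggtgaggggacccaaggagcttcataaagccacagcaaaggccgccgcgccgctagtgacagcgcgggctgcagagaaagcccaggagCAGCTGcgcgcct
Prdm1, minus strand, chr10:44458699-44458998: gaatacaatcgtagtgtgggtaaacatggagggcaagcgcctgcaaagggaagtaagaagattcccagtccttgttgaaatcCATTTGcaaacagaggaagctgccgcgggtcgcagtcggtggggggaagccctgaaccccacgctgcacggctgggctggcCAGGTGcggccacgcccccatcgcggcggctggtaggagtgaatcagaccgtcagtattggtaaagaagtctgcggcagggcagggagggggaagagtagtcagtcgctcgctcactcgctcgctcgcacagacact
Zeb2, minus strand, chr2:45117393-45117692, the first of its 4 windows in the table: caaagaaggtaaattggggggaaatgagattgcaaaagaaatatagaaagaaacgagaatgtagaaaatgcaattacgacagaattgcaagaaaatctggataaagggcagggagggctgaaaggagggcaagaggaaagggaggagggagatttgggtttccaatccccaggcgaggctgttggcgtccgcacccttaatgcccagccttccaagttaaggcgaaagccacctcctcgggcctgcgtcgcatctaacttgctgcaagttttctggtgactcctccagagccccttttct

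CANNTG reads the same on both strands, and 72.3% of the 32841 promoter windows in the table held it. The Tbx21 window held 2 matches and the Prdm1 window 2, while none of the 4 Zeb2 windows held any. In each of Tbx21 and Prdm1, 1 of the matches was CAGGTG, a form that with its complement CACCTG was present in 20.2% of all windows. Batf had 3 CANNTG matches, Irf4 1, each of the 2 Runx3 windows 1, and Eomes 0. The AP-1 letters TGANTCA, a kind of site bound by BATF, were found in 7.81% of all windows and in windows of Prdm1 and Zeb2 among these genes. For Zeb2 they were only in the last of its 4 windows, which is not shown, and not in the window shown. A match is a description of letters in a window of 300 bases and not a binding site.

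The arrays were alike in brightness, with median linear signals from 49.19 to 56.76, but not in spread, the interquartile range of the log2 values of an array, which ran from 2.44 to 2.87. Id2, the targeted gene, had log2 signals of 9.88 and 9.73 in Id2KO and 9.84 and 9.64 in Id2KOBimKO, against 10.75 and 10.93 in BimKO and 10.78 to 11.16 in WT KLRG1lo. Bcl2l11 did not separate the arrays labelled Bim-deficient, at 7.59 and 8.01 in Id2KOBimKO and 7.36 and 7.66 in BimKO, against 7.44 to 7.92 in WT KLRG1lo, so the Bim status of both groups rests on the labels. Where these probe sets lie relative to what was deleted is unknown here. The CD8 T cell markers Cd8a, Cd8b1, Cd3d, Cd3e, Cd3g, Cd2 and Thy1 had group means of at least 9.78 in every group. Transcripts of antigen-presenting and myeloid cells varied between arrays: Cd74 was under 7 on 9 arrays and reached 7.77 to 8.73 on Id2KOBimKO array 2, BimKO array 2 and WT KLRG1lo arrays 3 to 5. Both Id2KO arrays differed from the other 12 in sex-linked genes, with Xist at a mean of 4.73 against 9.53 in WT KLRG1lo and Eif2s3y at 7.79 against 3.18.

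Values below are log2 of the authors' RMA signal unless said otherwise, and differences are log2 differences from limma fitted to all genes tested on all 14 arrays. Genes with a Benjamini-Hochberg adjusted p below 0.05, taken over those genes, are called. Signals of different genes come from different probe sets and are not ranked against each other. Where a difference between a pair of genes is given, only its change across arrays is read.

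**Figure D1:**
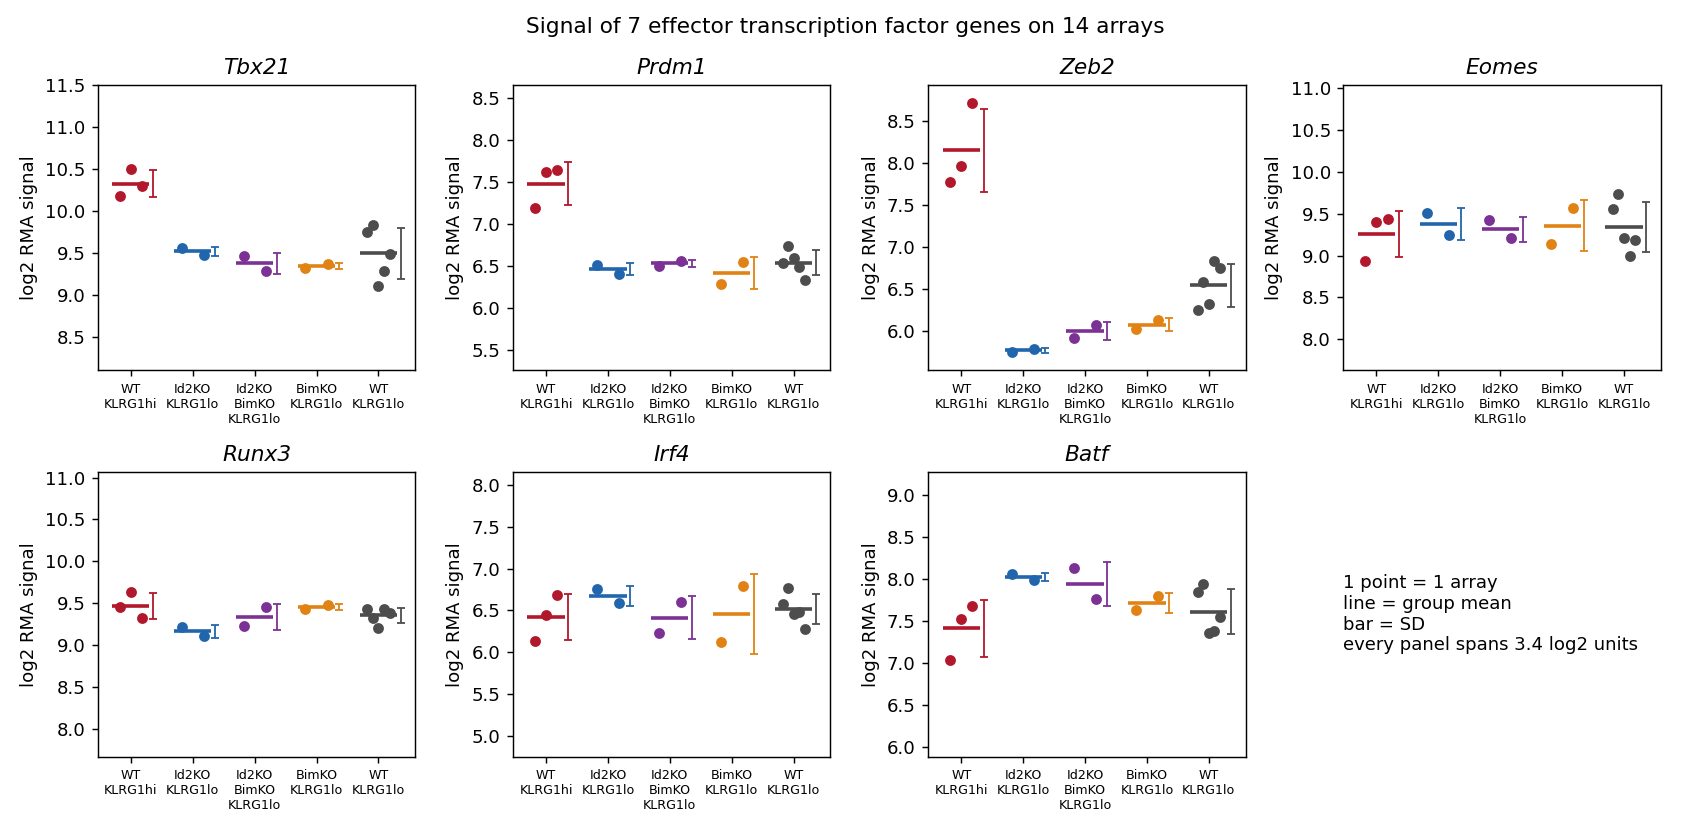
Log2 RMA signal (vertical axis) of the 7 genes in 5 groups (horizontal axis). A point is 1 array, the line the group mean and the bar the SD, and each panel spans the same number of log2 units. Tbx21, Prdm1 and Zeb2 were higher on all 3 KLRG1hi arrays than on any WT KLRG1lo array. Of all genes tested, 4.18% had no overlap between these groups. Zeb2 was lower in each mutant group than on any WT KLRG1lo array. Against WT KLRG1lo, 28.5% of all genes tested had no overlap for Id2KO, 12.6% for BimKO and 12.6% for Id2KOBimKO.

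The WT populations were compared to see which of these factors part KLRG1hi from KLRG1lo effector cells. Of the 7 genes, 3 rose in KLRG1hi and 0 fell, with 0.942% of all genes tested called in either direction and 0.679% called higher. The median difference of the 7 was 0.12, against 0 over all genes tested. The rise was carried by Zeb2, Prdm1 and Tbx21, while Eomes, Runx3, Irf4 and Batf lay between -0.20 and 0.12. The genes without overlap between the groups were these same 3, and 4.18% of all genes tested had no overlap.

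Zeb2 had log2 signals of 7.78, 7.97 and 8.72 on the KLRG1hi arrays, against 6.25, 6.58, 6.32, 6.83 and 6.75 on the WT KLRG1lo arrays. The lowest KLRG1hi array was above the highest WT KLRG1lo array, and KLRG1hi array 3 stood above the other KLRG1hi arrays. The difference was 1.61 (SE 0.19, limma adjusted p = 0.000206), a 3.05-fold rise with a 95% interval of 1.20 to 2.02 log2. The arrays were also parted into sets of lower and higher background, read as the median signal of probe sets with no gene name. These medians ran from 5.01 to 5.39, the cut was at their largest gap, 0.085 log2, and no label names the sets. The lower set holds the samples listed first in the series and the higher set all those listed after them. What parts the sets was not tested. The difference of Zeb2 was 1.46 within the lower set and 2.08 within the higher one, which holds 1 KLRG1hi array. Zeb2 is also made by myeloid cells, and the summed linear signal of 6 monocyte and macrophage markers was 433 to 495 in KLRG1hi, inside the 383 to 799 of WT KLRG1lo. Of the 5 that were tested none passed, 2 were positive and 3 negative, with Lyz2 at -1.39 and Csf1r at -0.55. Cd68, the brightest of them, had means of 8.06 in KLRG1hi and 7.74 in WT KLRG1lo. On the 9 arrays with Cd74 under 7 the difference of Zeb2 was 1.74 (SE 0.27, limma adjusted p = 0.0286), a setting chosen after seeing the values that leaves WT KLRG1lo with arrays 1 and 2. In a bulk sample, fewer cells of a type and less RNA per cell cannot be told apart.

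Prdm1 had 7.19, 7.62 and 7.64 in KLRG1hi, against 6.53, 6.74, 6.59, 6.49 and 6.33 in WT KLRG1lo. The groups did not overlap, and KLRG1hi array 1, which also had the narrowest spread of all arrays, was the lowest of its group. The difference was 0.95 (SE 0.15, limma adjusted p = 0.00267), and within the 2 sets of arrays it was 0.77 and 1.17. Prdm1 is also high in plasma cells. Of 7 tested B and plasma cell markers none passed and 1 was positive, Xbp1, with means of 8.31 in KLRG1hi and 8.02 in WT KLRG1lo, while Jchain, at 3.81 in KLRG1hi and 4.18 in WT KLRG1lo, was too dim to be tested. The sum of the 9 markers on the array was 598 to 651 in KLRG1hi and 625 to 765 in WT KLRG1lo, and their part in the Prdm1 signal was not tested. On the 9 arrays with Cd74 under 7 Prdm1 was at 0.85 and did not pass (limma adjusted p = 0.302).

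Tbx21 had 10.18, 10.5 and 10.30 in KLRG1hi, against 9.75, 9.84, 9.11, 9.29 and 9.49 in WT KLRG1lo. The KLRG1lo arrays were more unlike each other than the KLRG1hi arrays, with arrays 1 and 2 nearest to KLRG1hi. The difference was 0.83 (SE 0.16, limma adjusted p = 0.0203), a 1.78-fold rise. It was 0.54 within the lower background set, which holds WT KLRG1lo arrays 1 and 2, and 1.00 within the other set. The call was lost without KLRG1hi array 2 (0.74, limma adjusted p = 0.174), without WT KLRG1lo array 4 (0.78, limma adjusted p = 0.0565), without WT KLRG1lo array 5 (0.83, limma adjusted p = 0.0551), in a fit of these groups alone (limma adjusted p = 0.0852) and on the 9 arrays with Cd74 under 7 (0.53, limma adjusted p = 0.903).

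Eomes, the T-box relative of Tbx21, had 8.94, 9.40 and 9.43 in KLRG1hi, against 9.56, 9.73, 9.21, 9.0 and 9.19 in WT KLRG1lo. The groups overlapped in part, with KLRG1hi array 1 below every WT KLRG1lo array and WT KLRG1lo arrays 1 and 2 above every KLRG1hi array, and the difference of -0.08 had a 95% interval from -0.47 to 0.30. Arrays that were high for Tbx21 within the WT KLRG1lo group, arrays 1 and 2, were also the high ones for Eomes. The same arrays had the widest spread of that group, at 2.68 and 2.82. The log2 signal of Tbx21 minus that of Eomes on the same array was 1.24, 1.11 and 0.88 in KLRG1hi. It was 0.19, 0.11, -0.10, 0.28 and 0.31 in WT KLRG1lo and between -0.20 and 0.25 on the 6 mutant arrays, so the KLRG1hi arrays were apart from the other 11 in this difference. It was chosen after the values were seen and was not tested.

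Runx3 had 9.45, 9.63 and 9.32 in KLRG1hi, against 9.21 to 9.43 in WT KLRG1lo with a median of 9.38. It had the narrowest range of the 7 genes over all arrays, 0.52 log2, and its difference was 0.12 (95% interval -0.16 to 0.39). Irf4 had 6.14, 6.44 and 6.68 in KLRG1hi, against 6.28 to 6.77 with a median of 6.48 in WT KLRG1lo. Its arrays overlapped, and the difference was -0.10 (95% interval -0.47 to 0.28). Batf had 7.03, 7.52 and 7.68 in KLRG1hi, against 7.84, 7.94, 7.35, 7.38 and 7.55 in WT KLRG1lo. Its arrays overlapped as well, with KLRG1hi array 1 lowest of all, and the difference was -0.20 (95% interval -0.58 to 0.18). None of the intervals of Eomes, Runx3, Irf4 and Batf reached 1 log2 in either direction. Within the lower and the higher background set the differences had opposite signs, at -0.48 and 0.29 for Eomes, -0.39 and 0.27 for Irf4 and -0.62 and 0.26 for Batf. Runx3 was at 0.16 and -0.01 in that order. The higher set rests on 1 KLRG1hi array.

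**Figure D2:**
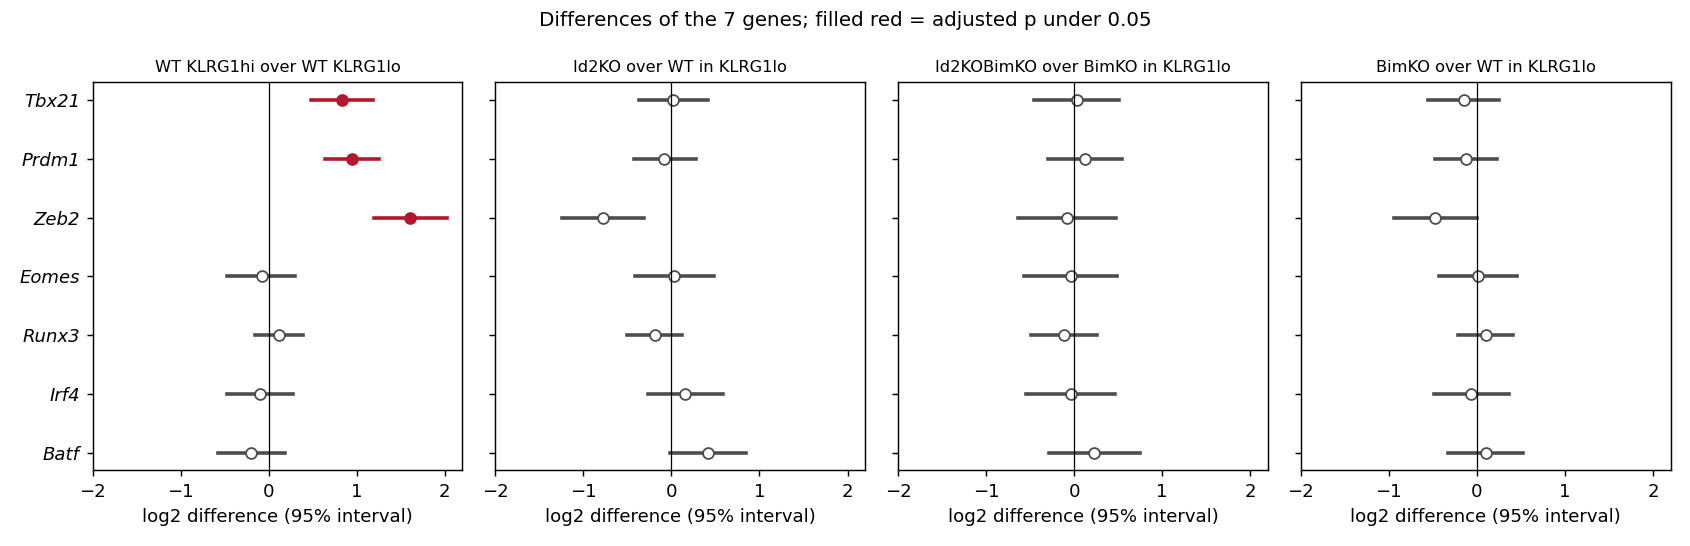
Log2 difference with its 95% interval (horizontal axis) of the 7 genes (vertical axis) in 4 comparisons from the limma fit, with the group named first minus the other. Filled red points passed at an adjusted p under 0.05: Zeb2 at 1.61, Prdm1 at 0.95 and Tbx21 at 0.83 between the WT populations, and none in the comparisons of mutant cells.

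Genes around these factors were counted in lists fixed with earlier results of these data known. Of 12 effector genes known as T-bet targets, 10 rose in KLRG1hi and 0 fell, with a median of 1.24. Klrg1, whose protein was used for the sort and which is no finding, was at 4.76, and the fractalkine receptor Cx3cr1 (2.04), the sphingosine phosphate receptor S1pr5 (1.72), the granzyme Gzmb (1.5), the IL-12 receptor chain Il12rb2 (1.40) and the cytokine Ifng (0.86) followed. The other two, named after their values were seen, were the chemokine receptor Cxcr3, with means of 10.48 in KLRG1hi and 11.19 in WT KLRG1lo, and the IL-2 receptor chain Il2rb, at 10.49 in KLRG1hi and 10.53 in WT KLRG1lo. Of 4 tested NK cell markers 1 rose as well, Klrb1c at 2.92, and the summed linear signal of the 5 on the array was 3450 to 5495 in KLRG1hi and 1848 to 3896 in WT KLRG1lo. Their part in the result was not tested. Of 10 tested genes known as repressed by Blimp-1, 4 fell and 0 rose, with a median of -0.68. They were the IL-7 receptor Il7r (-1.48), the lymph node homing receptor Ccr7 (-1.38), the growth regulator Myc (-1.32) and the follicle homing receptor Cxcr5 (-1.17). The 1 positive gene of this list, named after its values were seen, was the IL-2 receptor chain Il2ra, which did not pass. Its means were 7.31 in KLRG1hi and 6.29 in WT KLRG1lo.

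Among 14 tested genes listed as relatives and partners of the 7 genes, such as Runx1, Cbfb, Zeb1, Irf8, Batf3 and the Jun genes, 1 rose in KLRG1hi and 0 fell, with a median of 0.06. It was Bhlhe40, at 1.54 (SE 0.24, limma adjusted p = 0.00267). Bhlhe40 is a helix-loop-helix regulator of cytokine production and so no family relative of the 7 genes. Bhlhe40 had 7.75, 8.67 and 8.36 in KLRG1hi, against 6.71, 7.49, 6.43, 6.65 and 6.33 in WT KLRG1lo, and the groups did not overlap. Of 9 tested memory side transcription factors 2 fell and 0 rose, with a median of -0.48: Myb, a regulator of stem-like T cells, at -1.35, and Bach2, which represses effector genes, at -0.67 (SE 0.15, limma adjusted p = 0.0467). Of 15 tested upstream receptors and signal transducers 1 rose, Il12rb2, and 0 fell. Of 7 E and Id proteins none passed, with Id3 at -0.84 and Id2 at 0.35.

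The genes whose signal ran most like each factor over the 14 arrays were found by Pearson r, given as a description since the arrays share their groups and their spread. For Zeb2 they were the kinetochore gene Nuf2 (r = 0.974), Cx3cr1 (0.966) and the NK receptor Klrb1c (0.961). For Prdm1 they were the NK receptor Klra3 (0.963), Klrg1 (0.962) and Bhlhe40 (0.957). For Tbx21 they were the cytokinesis gene Racgap1 (0.984), the galectin Lgals1 (0.963) and Hid1 (0.962). Batf ran most like Vars (0.971), a tRNA synthetase, Adar (0.968), an RNA editing enzyme, and Dock8 (0.966), a guanine nucleotide exchange factor. For Eomes the closest was Cstb (0.918), for Runx3 Dyrk1b (0.835) and for Irf4 D17H6S53E (0.824).

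Id2KO and WT cells were compared within the KLRG1lo gate to see whether cells lacking Id2, per the labels, carry other levels of these factors. None of the 7 genes passed in limma, where 0.111% of all genes tested did, and 1 of the 7 had an unadjusted p under 0.05. The gene with the largest difference was Zeb2. It had 5.75 and 5.79 in Id2KO, against 6.25, 6.58, 6.32, 6.83 and 6.75 in WT KLRG1lo. Both Id2KO arrays were below every WT array, as was seen in either direction for 28.5% of all genes tested in this comparison. The difference was -0.78 (SE 0.22, 95% interval -1.24 to -0.31), which did not pass over all genes (limma adjusted p = 0.275, 103rd in order of p). In 26 alternative settings it ran from -0.99 to -0.49 with adjusted p-values from 0.0504 to 0.992. Both sets of arrays gave it a negative sign, at -0.66 and -0.84.

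Monocyte and macrophage markers had negative differences in this comparison as well. The 6 monocyte and macrophage markers summed to 344 to 365 in Id2KO and 383 to 799 in WT KLRG1lo. All 5 of them that were tested were negative, with Lyz2 at -1.34 and Csf1r at -0.65, and none passed. Within the WT KLRG1lo group Lyz2 was 5.26 and 5.59 on arrays 1 and 2 and 6.75, 8.44 and 6.71 on arrays 3 to 5, beside Zeb2 at 6.25 and 6.58 and then 6.32, 6.83 and 6.75. On the mutant arrays Lyz2 was 5.38 and 5.05 in Id2KO, 5.18 and 6.72 in Id2KOBimKO and 5.63 and 7.35 in BimKO. In the same order Zeb2 was 5.75 and 5.79, 5.92 and 6.07, and 6.02 and 6.13. On the 9 arrays with Cd74 under 7 the Zeb2 difference between Id2KO and WT was -0.64 (SE 0.29, limma adjusted p = 0.992). The part of these cells in the Zeb2 signal was not tested. Klrg1, the gene of the sort marker, was 5.48 and 5.70 in Id2KO, against 6.02 to 6.74 in WT KLRG1lo. Its difference of -0.69 did not pass (limma adjusted p = 0.275). It was 5.24 and 6.82 in Id2KOBimKO and 5.95 and 5.85 in BimKO. Whether cells with more KLRG1 inside the gate had a part in the Zeb2 signal was not tested. Both Id2KO arrays also carry the sex-linked difference given above, which cannot be told apart from the genotype.

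Batf had a positive difference that did not pass, with 8.06 and 7.99 in Id2KO, against 7.84, 7.94, 7.35, 7.38 and 7.55 in WT KLRG1lo. Both Id2KO arrays were above every WT array, by little over WT arrays 1 and 2. With Zeb2 this makes 2 of the 7 genes with arrays apart, a share close to the 28.5% of all genes tested. The difference was 0.41 (95% interval -0.02 to 0.85, limma adjusted p = 0.275, 3195th in order of p). The spread of the arrays moved with it: it was 2.83 and 2.87 on the Id2KO arrays, against 2.68, 2.82, 2.46, 2.48 and 2.57 on the WT KLRG1lo arrays. Within WT KLRG1lo, and within KLRG1hi, the arrays stood in the same order for Batf as for the spread. Pearson r of signal with spread was also taken over the 14 arrays, both as deviations from group means. It was 0.96 for Batf, 0.85 for Eomes, 0.76 for Tbx21, 0.67 for Prdm1, 0.57 for Irf4, 0.41 for Zeb2 and -0.17 for Runx3. The difference of Batf was 0.17 within the lower background set and 0.56 within the higher one. With the spread as a covariate the difference of Batf was -0.03 (SE 0.13), while that of Zeb2 was -0.99 (SE 0.24, limma adjusted p = 0.331). Both Id2KO arrays had a wider spread than every WT KLRG1lo array, so spread and genotype cannot be told apart here. The part of the spread in the Batf difference was not tested.

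**Figure D3:**
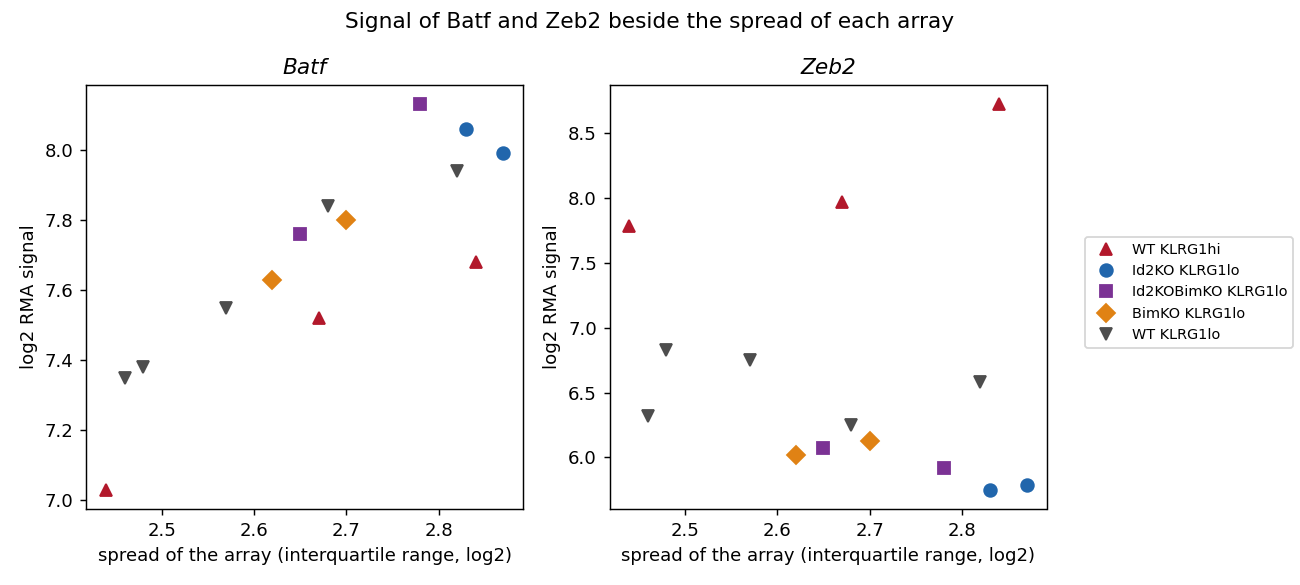
Log2 RMA signal of Batf and Zeb2 (vertical axes) beside the interquartile range of the log2 values of each of the 14 arrays (horizontal axes), with a symbol per group. Batf was higher on arrays of wider spread within each group with more than 2 arrays, and the KLRG1hi arrays lay below KLRG1lo arrays of like spread, whereas Zeb2 was high on the KLRG1hi arrays at any spread.

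The other 5 genes lay between -0.19 and 0.16 in Id2KO against WT, and their 95% intervals together covered -0.50 to 0.59. Tbx21 had 9.56 and 9.48 in Id2KO, inside the 9.11 to 9.84 of WT KLRG1lo, and a difference of 0.02 (95% interval -0.37 to 0.42), which was -0.24 and 0.19 within the lower and the higher background set. Eomes had 9.51 and 9.24, inside the 9.0 to 9.73 of WT KLRG1lo, at 0.03 (95% interval -0.41 to 0.48). Prdm1 had 6.51 and 6.41 in Id2KO, against a median of 6.53 in WT KLRG1lo, at -0.08. Runx3 had 9.22 and 9.11 in Id2KO, against 9.21 to 9.43 in WT KLRG1lo, at -0.19. Irf4 had 6.76 and 6.59, against a median of 6.48 in WT KLRG1lo, at 0.16. These results do not show that the levels were equal.

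Of the 12 effector genes known as T-bet targets 2 fell in Id2KO, Cx3cr1 at -1.77 (SE 0.22, limma adjusted p = 0.00105) and S1pr5 at -1.05 (SE 0.19, limma adjusted p = 0.04), and 0 rose. The median of this list was -0.16, against 0.03 over all genes tested, beside the 0.02 of Tbx21 itself. Of the 10 tested genes known as repressed by Blimp-1, 1 rose, Cxcr5 at 1.80, and 0 fell (median 0.64), beside the -0.08 of Prdm1. Of 9 memory side factors 1 rose, Myb at 1.17 (SE 0.18, limma adjusted p = 0.00912), with a median of 0.26. Of the 14 relatives and partners none passed. The smallest p-values there were those of Spi1, a myeloid and B cell regulator, at -0.90 and of Jun at -0.46, both with limma adjusted p = 0.275. Of 15 upstream genes none passed, the TGF-beta receptor chain Tgfbr1 at 0.99 and the IL-21 receptor Il21r at 0.90 having the smallest p-values.

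In cells that lack Bim per the labels, the comparison of Id2KOBimKO with BimKO asks whether the Id2 difference is seen on that background. None of the 7 genes passed, nor did any other gene (0% called by limma, 262 genes at an unadjusted p under 0.05), and none of the 7 had arrays apart, as 29.7% of all genes tested had. Id2, the targeted gene, did not pass here either, at -1.1 (SE 0.22, limma adjusted p = 0.587). A gene that did not pass in this comparison is therefore not shown to be unchanged. Zeb2 had 5.92 and 6.07 in Id2KOBimKO, against 6.02 and 6.13 in BimKO. The arrays overlapped and the difference was -0.08 (95% interval -0.64 to 0.48). Batf had 8.13 and 7.76, against 7.63 and 7.80 in BimKO, a difference of 0.23 (95% interval -0.29 to 0.75). The other 5 genes lay between -0.12 and 0.12.

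Averaged over both Bim backgrounds, the Id2 difference was -0.43 for Zeb2 (95% interval -0.79 to -0.06, limma adjusted p = 0.62) and 0.32 for Batf (limma adjusted p = 0.62). The other 5 genes lay between -0.15 and 0.06, and none of the 7 passed, where 0.18% of all genes tested did. The difference between the Id2 effects of the 2 backgrounds, tested as an interaction, was 0.70 for Zeb2 (SE 0.35, 95% interval -0.03 to 1.43, limma adjusted p = 0.726) and -0.18 for Batf. No gene of the 7 passed there, and 0.0277% of all genes tested did. Those 4 genes were the sex-linked Xist, Eif2s3y, Uty and Kdm5d, in which the Id2KO arrays differ. The Id2KO arrays enter both the mean and the interaction, so their sex-linked difference cannot be told apart from either. Of the 9 memory side factors 1 passed for the mean Id2 difference, Myb at 0.85 (limma adjusted p = 0.0108). Of the 12 T-bet targets 1 did, Cx3cr1 at -1.20 (limma adjusted p = 0.00367). Of the 10 tested genes known as repressed by Blimp-1, 1 did, Cxcr5 at 1.28 (limma adjusted p = 0.00137). Cx3cr1 was at -1.77 in Id2KO against WT but at -0.62 in Id2KOBimKO against BimKO, which did not pass. Its interaction of 1.15 did not pass either (limma adjusted p = 0.726).

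BimKO and WT cells were compared to see what Bim loss alone, per the labels, goes with. None of the 7 genes passed, and no other gene did (0% called by limma, 998 genes at an unadjusted p under 0.05). Zeb2 had 6.02 and 6.13 in BimKO, against 6.25 to 6.83 in WT KLRG1lo, and so was again below every WT array. Its difference was -0.47 (SE 0.22, 95% interval -0.94 to 0.00, limma adjusted p = 0.657), and -0.56 within the higher background set, the set of both BimKO arrays. All 5 tested monocyte and macrophage markers were negative here too, between -0.32 and -0.06, with sums of 325 to 545 in BimKO and 383 to 799 in WT KLRG1lo. Their part in the Zeb2 difference was not tested. Runx3 had 9.43 and 9.48 in BimKO, which touched the highest WT KLRG1lo array at 9.43, and a difference of 0.10. These were the 2 of 7 genes with arrays apart, where 12.6% of all genes tested were apart. Batf was at 0.10 and the other 5 genes lay between -0.15 and 0.10. None of the listed genes passed here. The smallest p-values were those of Cx3cr1 (-0.82) and S1pr5 (-0.59) among T-bet targets and Myc (0.73) and Cxcr5 (0.60) among Blimp-1 repressed genes. Among memory side factors they were those of Myb (0.63) and Bach2 (0.25).

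With both losses per the labels, Id2KOBimKO against WT KLRG1lo, none of the 7 genes passed, where 0.0623% of all genes tested did. Zeb2 had 5.92 and 6.07 in Id2KOBimKO, below every WT array, as 12.6% of all genes tested were in either direction. Its difference was -0.55 (SE 0.22, 95% interval -1.01 to -0.08, limma adjusted p = 0.785). The same 5 myeloid markers were all negative, between -0.60 and -0.17, with sums of 337 to 458 in Id2KOBimKO. Batf had 8.13 and 7.76 and was at 0.33, overlapping WT. Of the listed genes Id2 (-1.19), Myb (1.17), Cx3cr1 (-1.44) and Cxcr5 (1.36) passed, each with limma adjusted p = 0.0182. Against Id2KO, the Id2KOBimKO arrays gave 0.23 for Zeb2 and -0.08 for Batf, with none of the 7 passing where 0.0277% of all genes tested did. The 4 genes that did were Xist, Eif2s3y, Uty and Kdm5d, all sex-linked. In this comparison 3 of the 7 had arrays apart, Zeb2 and Runx3 higher and Tbx21 lower, against 37.4% of all genes tested.

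Over the 5 groups, Zeb2 was the gene of the 7 with the widest range, 2.97 log2, and its order from high to low was KLRG1hi, WT KLRG1lo, BimKO, Id2KOBimKO and Id2KO. In that order the arrays of neighbouring groups overlapped for BimKO and Id2KOBimKO and for no other neighbours. Of all genes tested, 4.18% were apart between KLRG1hi and WT KLRG1lo and 12.6% between BimKO and WT KLRG1lo. The share was 37.4% between Id2KOBimKO and Id2KO. The 6 mutant arrays lay at 5.75 to 6.13, under the lowest WT KLRG1lo array at 6.25, but the comparisons with WT share the same 5 WT arrays and none passed. The share of all genes tested that part these 6 arrays from the 5 was not counted. For Tbx21 and Prdm1 KLRG1hi was first and did not overlap its neighbour, and the 4 KLRG1lo groups overlapped at each step, with group means from 9.35 to 9.52 and from 6.41 to 6.54. For Eomes and Irf4 every pair of neighbouring groups overlapped, with group means between 9.25 and 9.37 and between 6.41 and 6.67. For Batf every neighbouring pair overlapped too, with means of 7.41 in KLRG1hi, 8.02 in Id2KO, 7.94 in Id2KOBimKO, 7.71 in BimKO and 7.61 in WT KLRG1lo. Runx3 means ran from 9.17 in Id2KO to 9.47 in KLRG1hi. Its neighbours were apart between BimKO and WT KLRG1lo and between Id2KOBimKO and Id2KO, by gaps of 0.10 and 0.17. The shares of all genes tested for these pairs are the 12.6% and 37.4% above.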

How the data were processed

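The authors deposited linear intensity values for 34760 probe sets of 14 single-colour arrays; per the submitters' processing notes these are RMA values, and mm9 is the build named. All columns were used, as log2 without an offset. Names came from the platform annotation, updated by Entrez number through RefSeq (GRCm38.p6; 21553 of 21640 probe sets with a single name matched). The brightest probe set stood for a gene, and a gene was tested if 2 or more arrays had it over their own 40th percentile. limma 3.58.1 in R 4.3.3 fitted group means over 5 groups without covariates (9 residual and 7.99 prior degrees of freedom), two-sided, and was tested on simulated data. Intervals are 95% intervals from that fit. The 2 sets of arrays were parted at the largest gap, 0.085 log2, in the median signal of unnamed probe sets. Named list genes were up to 6 called per list and comparison by p, or the 2 of smallest p where none was called, plus those said to be chosen otherwise. The members and lists were chosen with earlier results of these data known. Alternatives changed the filter, normalization, variance model, probe set rule, offset, arrays and covariates. The number of arrays limits the precision.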

Additional observations from a re-analysis of the deposited data

How the results depend on the processing

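The count of 3 genes called between KLRG1hi and WT KLRG1lo was 1, Zeb2, with the replicate block and 1, Zeb2, on the 9 arrays with Cd74 under 7, a setting chosen after seeing the data that has fewer samples. The array numbers in the titles were not taken to pair KLRG1hi with WT KLRG1lo arrays, whose same-numbered deviations correlated at -0.18, 0.061 and -0.52 over genes, and no KLRG1hi array was closest to its own number. The other groups share only 2 numbers, and over all 21 same-numbered pairs the correlation ran from -0.52 to 0.41, with Id2KO and WT KLRG1lo at 0.21 and 0.16. With the block Zeb2 was at -0.49 in Id2KO, -0.26 in Id2KOBimKO and -0.18 in BimKO, each against WT, at 0.41 for the interaction and at -0.28 for the mean Id2 difference. For KLRG1hi against WT KLRG1lo with the block, Prdm1 was at 0.86 (limma adjusted p = 0.0652) and Tbx21 at 0.76 (limma adjusted p = 0.178). The number of all genes called for KLRG1hi against WT KLRG1lo was 136, and 42 with the block, 78 in a fit of these groups alone, 33 on the arrays with low Cd74, 225 after quantile normalization, 255 with WT KLRG1lo arrays 3 to 5 alone and 376 with the array spread. For Id2KO against WT it was 16, and in the settings of the same names 5, 26, 4, 14, 708 and 12. For Id2KOBimKO against WT it was 9, and 0 with the block, 0 on the arrays with low Cd74, 24 with the array spread and 0 without either Id2KOBimKO array or without WT KLRG1lo array 1, 4 or 5. For the mean Id2 difference it was 26, and 8, 3 and 52 in the first 3 of those settings. For Id2KOBimKO against BimKO it was 0, and 1 after quantile normalization and 4 with the array spread, for Id2KOBimKO against Id2KO 4, and 7 in a fit of these groups alone, and for the interaction 4, and 1 with low Cd74. With single arrays left out these counts ran from 45 to 179 for KLRG1hi, 4 to 39 for Id2KO against WT, 0 to 15 for Id2KOBimKO against WT, 13 to 36 for the mean Id2 difference, 0 to 8 for BimKO against WT and 0 to 3 for Id2KOBimKO against BimKO. With each array left out in turn 2 or 3 of the 7 genes were called, and where this left a group with 1 array its variance was taken from the other groups. In all other comparisons 0 of the 7 were called in each of the 26 settings. Values near 0 changed sign, none of them past the threshold, and the cause was not tested. For KLRG1hi against WT KLRG1lo arrays 3 to 5 alone, Eomes was at 0.12 and Irf4 at 0.01, and with single arrays left out they ran from -0.17 to 0.07 and from -0.23 to 0.04. For Id2KO against WT, Eomes was at -0.23 after quantile normalization, -0.16 with the block, -0.37 with the array spread and -0.27 on the arrays with low Cd74, and Tbx21 was at -0.23, -0.17, -0.27 and -0.27 in that order and at 0.00 with the array set. With single arrays left out they ran from -0.10 to 0.17 and from -0.07 to 0.11. In that comparison Irf4 was at -0.10 and Batf at -0.03 with the array spread, and Irf4 at 0.00 on the arrays with low Cd74. Zeb2 in Id2KOBimKO against BimKO was at 0.08 with the array set. Batf in BimKO against WT was at -0.02 with the block, 0.00 with the spread and -0.27 on the arrays with low Cd74. In Id2KOBimKO against Id2KO it was at 0.02 after quantile normalization, 0.16 with the spread and 0.11 with low Cd74 (-0.27 to 0.11 with single arrays left out), and for the interaction at 0.02, 0.17 and 0.37 in that order (-0.37 to 0.01).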
